A study of Mus musculus with 2 samples.

Results

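Aminoacyl-tRNA synthetases join each amino acid to its tRNA, the step that supplies charged tRNA to the ribosome. Entries were taken by gene symbol (a capital letter followed by ars, with an optional 2, a or b, and Eprs), which found 37 of the 30385 genes listed. Of these, 20 encode cytosolic enzymes and 17, with symbols ending in 2, encode enzymes of the mitochondrial matrix. The data were reads near transcript 5′ ends, counted per gene by 5′RNA-seq in heart RNA from MHC403/+ mice and from wild-type (WT) mice. MHC403/+ mice carry, on 1 allele, a missense change in the myosin heavy chain that causes hypertrophic cardiomyopathy, a thickening of the heart muscle. Mice of both genotypes were of the 129/SvEv strain, were aged 8 to 16 weeks, and were given CsA (cyclosporine A, an immunosuppressant) subcutaneously at 15 mg/kg with 2 injections per day over 2 weeks, so no library came from untreated animals. Animals of a genotype were pooled into 1 library, their number not being given in the sources used here. The differences below therefore lack replicates, and none carries a p-value.

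Cytosolic and mitochondrial translation use separate sets of synthetases, both encoded in the nucleus. Cytosolic enzymes charge tRNA for all nuclear-encoded proteins, whereas the mitochondrial set serves only the few respiratory-chain subunits made inside the organelle, which the heart depends on for its ATP. Glycyl- and lysyl-tRNA synthetase are exceptions, since Gars and Kars each supply both compartments, and Eprs carries the glutamyl and prolyl enzymes on 1 polypeptide. In mammalian cells, part of the cytosolic set is held in a multisynthetase complex, while the rest are outside it. Many cytosolic synthetase genes are targets of ATF4, the transcription factor of the amino acid response.

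Sequencing depth was 5468677 counted reads for MHC403 and 5481123 for WT. A ratio divides the MHC403 level by the WT level, each scaled to its own total. Bracketed ranges give the exact 95% interval (Clopper-Pearson), which covers counting error only. Entries of mitochondrial transcripts took 15.4% of MHC403 reads and 32.9% of WT reads, and the median ratio of the 8587 genes that reached 100 reads over the pair of libraries was 1.44 (log2 0.53, quartiles 0.13 and 0.96). A ratio near 1.44 is therefore the middle of this comparison, and values are read below against that median as well as against 1. Cardiomyocyte markers were abundant in both libraries, at a summed 32744 RPM (reads scaled to the library total, as deposited) in MHC403 and 45544 RPM in WT over 6 genes. Much of this sum was Myh6, with 55171 reads in MHC403 and 132965 in WT. Of the 6, 5 had ratios below that of the median gene. Their intervals lay above 1 in 3 and below it in 2, beside 62.4% and 10.6% of the 8587 genes. Ratios above that of the median gene were found for 6 of 6 markers of fibroblasts (summed 2275 RPM in MHC403 against 425 in WT). The same held for 6 of 6 markers of macrophages (191 against 59.8 RPM), and none of these markers was at 0. For 6 endothelial markers the sums were 435 RPM in MHC403 and 356 in WT, with 5 of the 6 below the median gene in ratio. For 3 erythroid entries the sums were 2547 and 1520, with 3 of 3 above the median gene. The part of these cell types in the synthetase ratios was not tested, and in bulk heart RNA a different number of cells of a type and a different amount of RNA per cell cannot be told apart.

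Cytosolic synthetase transcripts were modestly higher in the MHC403 heart, at about the same ratio as the median gene, while mitochondrial ones had ratios near 1. Summed over the 20 cytosolic enzymes, MHC403 had 6063 reads (1109 RPM) and WT 4020 (733 RPM), a ratio of 1.51 (1.45 to 1.57). For the 17 mitochondrial enzymes the sums were 1223 reads (224 RPM) in MHC403 and 1099 (201 RPM) in WT, a ratio of 1.12 (1.03 to 1.21). The cytosolic ratio was 1.36 times the mitochondrial one (1.24 to 1.49), and this quotient does not depend on how the libraries are scaled.

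By gene, the median log2 ratio of the cytosolic enzymes was 0.59 (1.50-fold), which is 0.06 above the median of the 8587 genes. Every cytosolic member had at least 100 reads (149 to 1203, median 412), whereas 7 of the 17 mitochondrial members did (22 to 428 over all 17, median 88). The median of these 7 was 0.07 (1.05-fold), 0.46 below that of the 8587 genes, and over all 17 it was 0.24 (1.18-fold). Scaling by the median of ratios subtracts 0.55 from each log2 ratio and puts the cytosolic median at 0.042 and the mitochondrial median over the 7 at -0.48, now lower in MHC403. Among the 9934 genes with 22 to 428 reads the median was 0.56, and among the 5906 genes with 149 to 1203 reads it was 0.54, so the gene-wide median differed little between these depths.

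**Figure D1:**
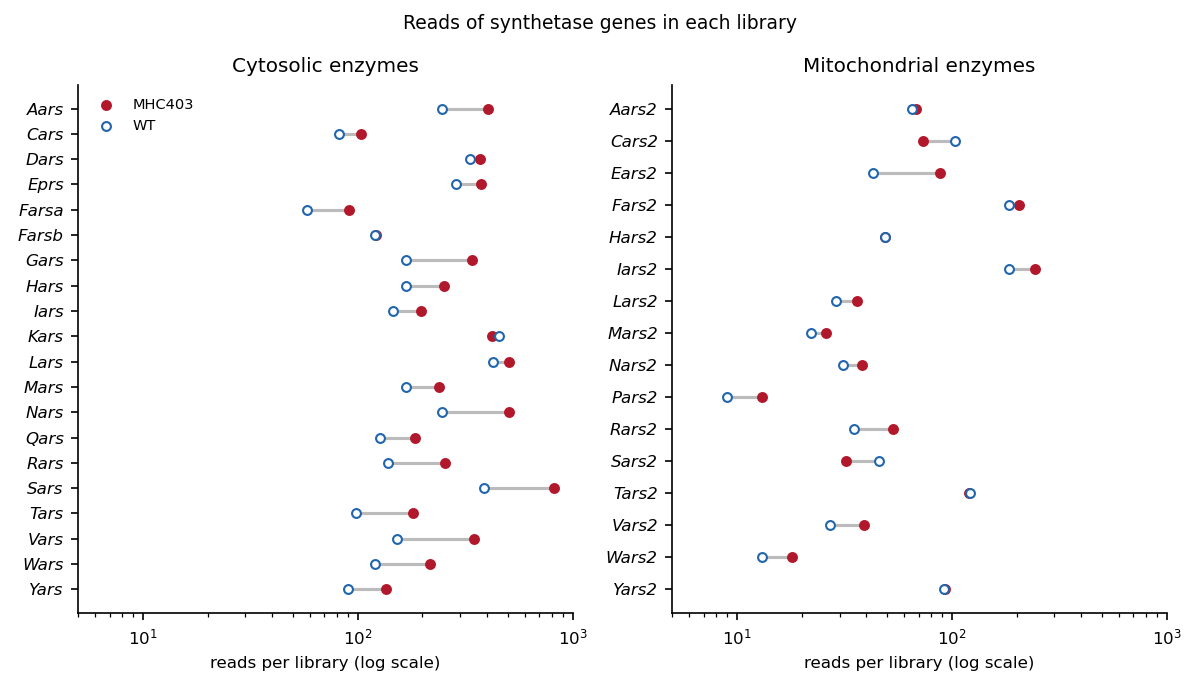
Reads of synthetase genes in the MHC403 library (filled points) and the WT library (open points), on a log axis, for cytosolic enzymes at the left and mitochondrial enzymes at the right. Of the cytosolic enzymes, Kars alone had fewer reads in MHC403 (420 against 457 in WT), and most mitochondrial enzymes had under 100 reads in both libraries together.

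Among the cytosolic enzymes, 4 of 20 were at least 2-fold higher in MHC403 and none was 2-fold lower, beside 23.1% and 2.08% of the 8587 genes, so the count of 2-fold genes was near the background. Valyl-tRNA synthetase, Vars (mm9 chromosome 17, 35137852 to 35153274), had 348 reads in MHC403 and 152 in WT. Its ratio of 2.29 (1.89 to 2.80) was the highest of the 37 and exceeded that of 84.0% of the 8587 genes. The counted windows of Vars overlap those of 2 other entries, so some of these reads may belong elsewhere.

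Seryl-tRNA synthetase, Sars (chromosome 3, 108229530 to 108248087), had 817 reads in MHC403 and 386 in WT, 2.12-fold (1.88 to 2.40). Glycyl-tRNA synthetase, Gars (chromosome 6, 54987995 to 55029498), had 342 in MHC403 and 167 in WT, 2.05-fold (1.70 to 2.48). Asparaginyl-tRNA synthetase, Nars (chromosome 18, 64659301 to 64676211), had 507 in MHC403 and 248 in WT, 2.05-fold (1.76 to 2.39). All 4 intervals hold 2, and with median-of-ratios scaling none of these genes was 2-fold higher.

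Below 2-fold stood arginyl-tRNA synthetase, Rars, with 256 reads in MHC403 and 139 in WT, 1.85-fold (1.50 to 2.29). Threonyl-tRNA synthetase, Tars, had 180 in MHC403 and 98 in WT, 1.84-fold (1.43 to 2.38). Tryptophanyl-tRNA synthetase, Wars, had 217 in MHC403 and 120 in WT, 1.81-fold (1.44 to 2.28). These genes stood above the median gene, each beyond 70.2% or more of the 8587 genes in ratio. Alanyl-tRNA synthetase, Aars, had 402 reads in MHC403 and 247 in WT, 1.63-fold (1.39 to 1.92). Histidyl-tRNA synthetase, Hars, had 251 in MHC403 and 167 in WT, 1.51-fold (1.23 to 1.84), close to the median gene.

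The counting interval lay wholly above a ratio of 1 in 16 of the 20 cytosolic enzymes and below it in none, beside 62.4% and 10.6% of the 8587 genes. The 16 also included Farsa, the alpha subunit of the phenylalanyl enzyme (1.57-fold), Yars (tyrosine, 1.50), Qars (glutamine, 1.46), Mars (methionine, 1.42), Iars (isoleucine, 1.35), Eprs (1.32) and Lars (leucine, 1.18). The other 4 were Cars (cysteine), with 103 reads in MHC403 and 82 in WT, Dars (aspartate), with 371 and 334, Farsb, the beta subunit of the phenylalanyl enzyme, with 122 and 120, and Kars, with 420 and 457. Lysyl-tRNA synthetase was the one cytosolic enzyme with a point estimate below 1, at 0.921 (0.805 to 1.05). Measured against the median gene in place of 1, the intervals of 6 enzymes (Vars, Sars, Nars, Gars, Rars and Wars) lay wholly above it. Those of 4 (Kars, Farsb, Dars and Lars) lay wholly below it, so the cytosolic set spread to both sides of the median. The shares of the 8587 genes with intervals on either side of the median were not computed, so these counts stand without a background. Farsa and Farsb form 1 enzyme, and their ratios of 1.57 (1.12 to 2.23) and 1.02 (0.785 to 1.32) overlap in their intervals.

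**Figure D2:**
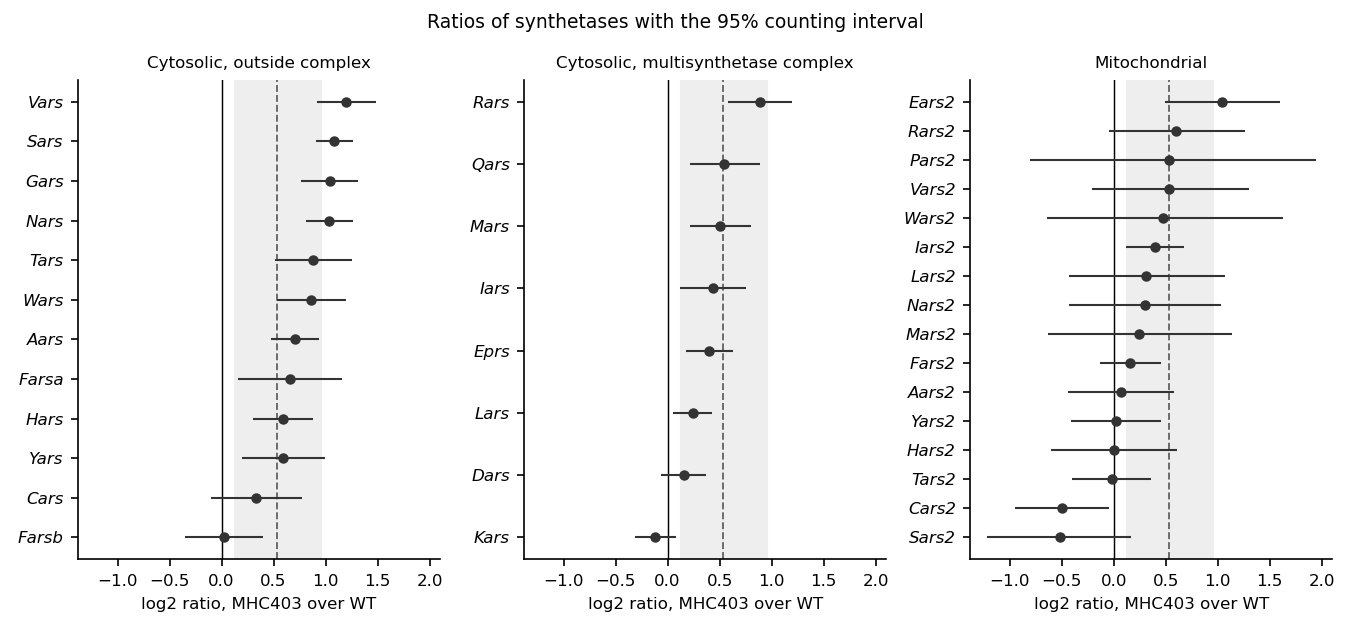
Log2 ratios of synthetases, MHC403 over WT, with exact 95% counting intervals, for cytosolic enzymes outside the multisynthetase complex, cytosolic enzymes of the complex and mitochondrial enzymes. The dashed line is the median of the 8587 genes with at least 100 reads (0.53), the grey band their quartiles (0.13 and 0.96), and the solid line a ratio of 1. The upper points of the left panel lie to the right of the dashed line, and most mitochondrial points lie to its left.

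As a set, the cytosolic enzymes that act outside the multisynthetase complex had a higher ratio than those inside it. Single enzymes overlapped, with log2 ratios from 0.03 to 1.20 outside and from -0.12 to 0.88 inside, and summed reads give more weight to genes with more reads. The 12 enzymes outside the complex had 3515 reads in MHC403 and 1935 in WT, 1.82-fold (1.72 to 1.93). The 8 enzymes of the complex (Eprs, Iars, Lars, Mars, Qars, Rars, Kars and Dars) had 2548 reads in MHC403 and 2085 in WT, 1.22-fold (1.16 to 1.30). The first ratio was 1.49 times the second (1.37 to 1.61), and the medians were 0.78 outside and 0.42 inside on the log2 scale. Past 2-fold were 4 of the 12 outside and 0 of the 8 inside, beside 23.1% of the 8587 genes, and the difference between these counts was not tested. By position, 10 of the 12 enzymes outside the complex lay above the median gene, against 2 of the 8 in it (Rars and Qars). The exceptions outside the complex were Cars and Farsb. After median-of-ratios scaling the summed log2 ratio became 0.32 outside the complex and -0.26 inside it.

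Of the scaffold proteins that hold the complex together, Aimp1 had 205 reads in MHC403 and 222 in WT, a ratio of 0.926 (0.762 to 1.12). Aimp2 had 203 in MHC403 and 112 in WT, 1.82-fold (1.44 to 2.31). Eef1e1, the smallest of the 3, had 54 in MHC403 and 18 in WT, 3.01-fold (1.74 to 5.45). The intervals of Aimp1 and Aimp2 do not overlap, and those of Aimp2 and Eef1e1 do. Synthetases also fall into structural classes, called I and II, by the fold of the catalytic domain. Class II enzymes had 3503 reads in MHC403 and 2282 in WT, 1.54-fold (1.46 to 1.62), and class I enzymes, with Eprs counted here, 2560 and 1738, 1.48-fold (1.39 to 1.57). The quotient of 1.04 had an interval that holds 1 (0.961 to 1.13).

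Promoter sequence was examined because cytosolic synthetases are known ATF4 targets, and it is shown for the 5 members whose window held the motif searched and for Sars, the gene with the second highest ratio, whose window did not. The motif was TGATGNAA, the core of the C/EBP-ATF composite element, read on both strands, so that TTNCATCA is the same motif on the other strand. RefSeq windows (build GRCm38.p6, 250 bases before to 50 after a gene's start) were found for 13 of the 20 cytosolic and 14 of the 17 mitochondrial members. The motif was present in 5 of the 13 cytosolic genes and in none of the 14 mitochondrial genes (15 windows), beside 4.51% of the 27025 genes with a window. The genes were Aars with 2 matches, and Gars, Iars, Tars and Yars with 1 each. The cAMP response element TGACGTCA was in none of the member windows and in 1.79% of all 32851 windows. The sequences run 5′ to 3′ on the gene's strand from 250 bases before the start to 30 after it, and capitals mark the motif.
Aars: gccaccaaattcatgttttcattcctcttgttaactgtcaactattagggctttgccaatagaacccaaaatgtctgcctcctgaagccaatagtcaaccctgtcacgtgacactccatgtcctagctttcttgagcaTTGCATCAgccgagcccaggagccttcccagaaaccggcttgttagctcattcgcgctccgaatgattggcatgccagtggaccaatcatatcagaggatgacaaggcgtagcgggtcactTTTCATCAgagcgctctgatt
Gars: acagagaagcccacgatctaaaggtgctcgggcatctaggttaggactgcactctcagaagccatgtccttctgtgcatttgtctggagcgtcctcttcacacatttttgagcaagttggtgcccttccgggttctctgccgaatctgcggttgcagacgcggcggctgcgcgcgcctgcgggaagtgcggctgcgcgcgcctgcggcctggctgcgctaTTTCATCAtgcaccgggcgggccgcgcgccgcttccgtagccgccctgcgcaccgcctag
Tars: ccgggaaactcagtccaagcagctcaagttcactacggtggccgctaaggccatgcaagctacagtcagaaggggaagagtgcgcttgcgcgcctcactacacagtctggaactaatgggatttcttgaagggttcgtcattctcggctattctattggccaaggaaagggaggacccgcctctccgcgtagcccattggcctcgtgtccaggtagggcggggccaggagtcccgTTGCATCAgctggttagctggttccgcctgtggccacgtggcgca
Iars: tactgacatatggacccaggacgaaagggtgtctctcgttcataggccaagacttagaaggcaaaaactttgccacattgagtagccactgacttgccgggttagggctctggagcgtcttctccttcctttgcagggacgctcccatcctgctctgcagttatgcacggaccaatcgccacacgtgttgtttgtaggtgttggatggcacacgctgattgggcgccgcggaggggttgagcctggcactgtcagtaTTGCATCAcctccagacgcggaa
Yars: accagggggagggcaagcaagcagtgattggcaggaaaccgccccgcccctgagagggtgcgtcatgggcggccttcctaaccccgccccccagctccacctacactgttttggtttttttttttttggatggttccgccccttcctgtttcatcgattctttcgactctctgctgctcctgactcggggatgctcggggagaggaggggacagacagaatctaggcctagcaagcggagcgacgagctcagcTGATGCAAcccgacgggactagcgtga
Sars: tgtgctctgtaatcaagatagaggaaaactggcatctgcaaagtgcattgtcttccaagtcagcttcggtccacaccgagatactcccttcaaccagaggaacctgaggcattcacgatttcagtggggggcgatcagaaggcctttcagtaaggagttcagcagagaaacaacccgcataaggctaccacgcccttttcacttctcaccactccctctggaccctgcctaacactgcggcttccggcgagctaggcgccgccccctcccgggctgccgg

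These windows lie at chr8:111033592-111033871 on the plus strand, chr6:55037751-55038030 on the plus strand, chr15:11399629-11399908 on the minus strand, chr13:49681880-49682159 on the plus strand, chr4:129189653-129189932 on the plus strand and chr3:108445230-108445509 on the minus strand of GRCm38.p6. The read table uses mm9, so the RefSeq start was not compared with the starts that were counted. The 5 matching genes had ratios between 1.35 (Iars) and 2.05 (Gars), and 1256 reads in MHC403 against 748 in WT, 1.68-fold (1.54 to 1.84). The 8 cytosolic genes with a window and no match (Dars, Eprs, Farsa, Farsb, Kars, Mars, Qars and Sars) had 2620 and 1936, 1.36-fold (1.28 to 1.44), and ranged from 0.921 (Kars) to 2.12 (Sars). The ranges of both sets overlap, and Cars, Hars, Lars, Nars, Rars, Vars and Wars had no window to search. A match describes letters in the window and is not evidence of binding.

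Among the mitochondrial enzymes, glutamyl-tRNA synthetase 2, Ears2 (mm9 chromosome 7, 129182335 to 129210577), had the highest ratio. It had 88 reads in MHC403 and 43 in WT, 2.05-fold (1.41 to 3.03), the same ratio as Gars and Nars, and was the one mitochondrial enzyme past 2-fold, with none 2-fold lower, beside 27.2% and 2.97% of the 13240 genes with 20 or more reads. The next was Rars2 (arginine), with 53 reads in MHC403 and 35 in WT, 1.52-fold (0.972 to 2.40). Iars2 (isoleucine), with 243 in MHC403 and 185 in WT, was 1.32-fold (1.08 to 1.60) higher, and it and Ears2 were the 2 whose interval lay above 1. At the other end, Cars2 (cysteine) had 73 reads in MHC403 and 103 in WT, 1.41-fold lower (1.03 to 1.93), the 1 member of the 37 whose interval lay below 1. Sars2 (serine) had 32 in MHC403 and 46 in WT, with an interval that holds 1.

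Of the other mitochondrial enzymes, Pars2 (proline), Vars2 (valine), Wars2 (tryptophan), Lars2 (leucine), Nars2 (asparagine) and Mars2 (methionine) had ratios from 1.18 (Mars2) to 1.45 (Pars2 and Vars2) on 22 to 69 reads each. Fars2 (phenylalanine), Aars2 (alanine), Yars2 (tyrosine), Hars2 (histidine) and Tars2 (threonine) had ratios from 0.986 (Tars2) to 1.12 (Fars2). In 14 of the 17 the interval held 1, while among the 13240 genes it lay above 1 in 53.8% and below 1 in 8.66%. Against the median gene, 6 mitochondrial intervals lay wholly below it (Cars2, Sars2, Tars2, Yars2 and Fars2 among them) and none wholly above it. Here too the shares over all genes were not computed. With under 100 reads, 10 of these enzymes could not show a difference of less than about 1.5-fold, since at 50 reads in each library the interval around 1 runs from 0.662 to 1.51. The windows of Lars2, Nars2 and Sars2 each overlap those of another entry, and the entries that share the start of Lars2 and Sars2 had 24 reads in MHC403 and 15 in WT (Kiaa0028) and 17 and 24 (SerRSmt).

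Of the enzymes for the same amino acid, 18 cytosolic and mitochondrial pairs could be formed, with Eprs set against both Ears2 and Pars2 and Fars2 against both Farsa and Farsb, so the pairs are not independent. The cytosolic ratio was higher in 14 of the 18 and the mitochondrial ratio in 4, with a median difference of 0.53 on the log2 scale. Exact conditional 95% intervals of the difference lay above 0 in 5 pairs, below 0 in 1 and held 0 in 12. Among the 5, for serine the cytosolic ratio was 3.04 times (1.86 to 5.02) the mitochondrial one, for threonine 1.87 times (1.29 to 2.70), for cysteine 1.77 times (1.14 to 2.75) and for alanine 1.56 times (1.05 to 2.30).

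Glutamate went the other way, with Eprs at 0.642 times (0.422 to 0.969) the ratio of Ears2. Isoleucine had near-equal ratios, 1.35 for Iars and 1.32 for Iars2 (quotient 1.03, 0.763 to 1.38). Hars and Hars2 are transcribed in opposite directions from annotated starts 75 bases apart on mm9, and had 251 and 49 reads in MHC403 against 167 and 49 in WT. Their quotient was 1.50 (0.942 to 2.40), so a difference was not detectable at this depth, and the labels do not say whether counting used strand. Iars2 and Eprs lie on opposite strands of chromosome 1 with starts 33694 bases apart, and had the same ratio of 1.32. Whether other genes lie between them was not examined.

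**Figure D3:**
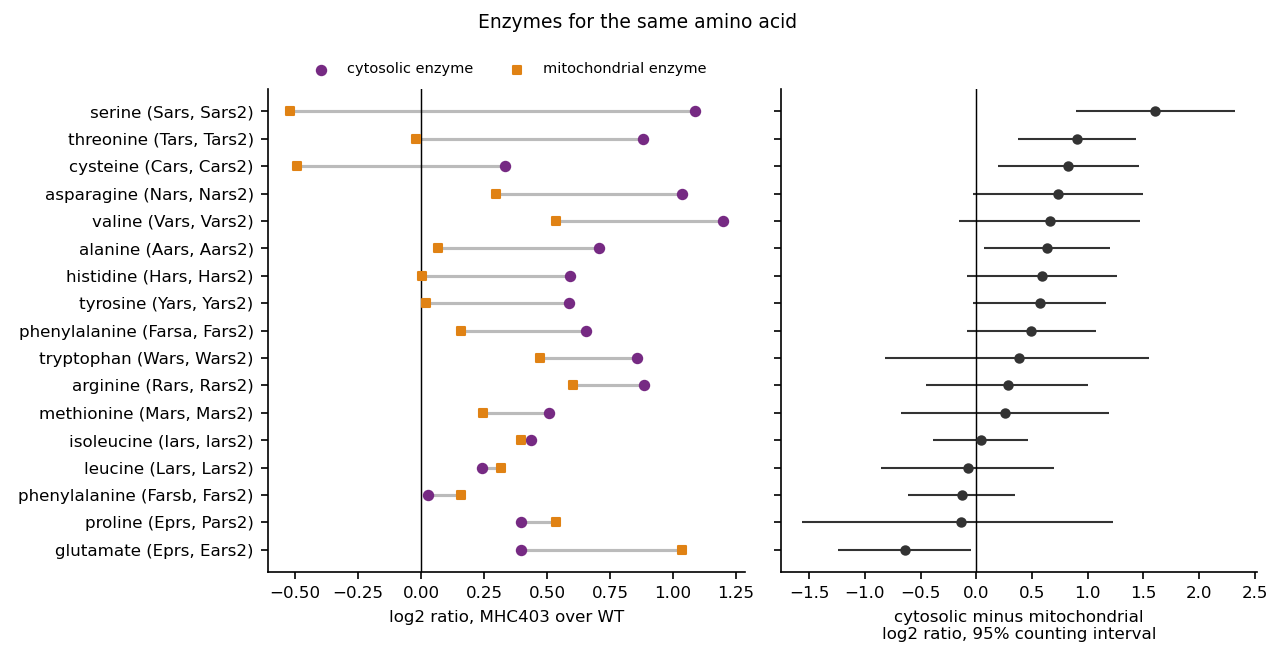
The left panel gives the log2 ratio, MHC403 over WT, of the cytosolic (circles) and mitochondrial (squares) enzyme for the same amino acid, and the right panel their difference, cytosolic minus mitochondrial, with its exact 95% counting interval. Serine has the largest difference (log2 1.61), and glutamate lies on the other side of 0 (-0.64).

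The authors' deposited table also gives each gene a score for MHC403 against WT, whose formula the sources used here do not state. Of the 35 synthetases with at least 20 reads in each library, 13 scored above 0 in the authors' deposited table (37.1%), beside 34.7% of 10483 genes. The highest in the authors' deposited table were Iars at 25 and Ears2 at 21, and a score of 20 or more was held by 7.88% of those genes. Iars and Ears2 have 1 annotated start each, and 8 of the 37 members have more (Aars2, Iars2 and Vars2 have 3, and Dars, Eprs, Qars, Tars2 and Wars 2).

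Translation factors of the mitochondrion work on the tRNA that the mitochondrial enzymes charge. Of the 10 listed 7 had at least 100 reads, and 0 of these were 2-fold higher or lower, beside 23.1% and 2.08% of the 8587 genes. The interval lay below 1 in 5 of the 7 and above it in 0, beside 10.6% and 62.4% of the 8587 genes. The other 2 were the recycling factor Mrrf, with 217 reads in MHC403 and 218 in WT, and the initiation factor Mtif3, with 95 and 96. Scaled by the median of ratios, 3 of the 7 were 2-fold lower and 0 higher, beside 7.26% and 8.86%. Their median log2 ratio was -0.37, which is 0.89 below that of the 8587 genes. The elongation factor Tufm had 295 reads in MHC403 and 526 in WT, 1.78-fold lower (1.54 to 2.06). The initiation factor Mtif2 was 1.81-fold (1.32 to 2.49) lower and the ribosome-recycling factor Gfm2 1.58-fold (1.28 to 1.95) lower. The release factor Mtrf1, with 7 reads in MHC403 and 35 in WT, was 4.99-fold (2.18 to 13.3) lower.

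Enzymes that trim, repair, amidate or modify tRNA lay on both sides of 1. Of 15 listed entries 10 had at least 100 reads, with 2 at least 2-fold higher, 0 lower (23.1% and 2.08% of the 8587 genes) and a median of 0.36, so the count was near the background. Yrdc, which takes part in making a modified adenosine of tRNA, had 138 reads in MHC403 and 58 in WT, 2.38-fold (1.74 to 3.30), and the pseudouridine synthase Pus1 was 2.04-fold (1.48 to 2.84) higher. Gtpbp3, which modifies mitochondrial tRNA, was 1.91-fold (1.36 to 2.72) higher. The interval lay above 1 in 4 of the 10 and below it in 2, beside 62.4% and 10.6% of the 8587 genes. Those 2 were Pet112l, 1.82-fold (1.32 to 2.52) lower, and Trmt5, 1.47-fold (1.08 to 2.03) lower. Mitochondria charge glutaminyl-tRNA by amidating a mischarged tRNA in place of a glutaminyl enzyme. The 3 subunits that do so were singled out with their values known: Pet112l had 61 reads in MHC403 and 111 in WT, Qrsl1 59 and 64, and Gatc 112 and 94. Scaled by the median of ratios, 0 of the 10 passed 2-fold upwards and 2 downwards, beside 8.86% and 7.26% of the 8587 genes.

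ATF4 and genes known as its targets had a median ratio of 2.64, against 1.50 for the cytosolic synthetases. Of 29 listed genes 17 reached 100 reads, and 12 of these were past 2-fold in the direction of MHC403 and 0 in that of WT, beside 23.1% and 2.08% of the 8587 genes, with 1 interval below 1 (Vldlr, a lipoprotein receptor, 499 reads in MHC403 and 660 in WT; named with its values known). Scaled by the median of ratios, the counts were 7 and 0, beside 8.86% and 7.26% of the 8587 genes. Atf4 itself had 662 reads in MHC403 and 219 in WT, 3.03-fold (2.60 to 3.55). Asparagine synthetase, Asns, which makes the amino acid that Nars attaches, had 65 in MHC403 and 20 in WT, 3.26-fold (1.95 to 5.68). The folate enzyme Mthfd2 had 106 in MHC403 and 6 in WT, 17.7-fold (7.87 to 49.3). The amino acid transporter Slc7a5 was 8.58-fold (5.10 to 15.4) higher, the serine synthesis enzymes Psat1 7.73-fold (3.51 to 20.1) and Phgdh 2.26-fold (1.10 to 4.89), and the stress regulator Nupr1 5.35-fold (3.60 to 8.18).

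Among the other regulators of the list, the transcription factor Atf3 was 10.9-fold (5.72 to 23.4) higher and Ddit3 1.40-fold (1.09 to 1.80), and the pseudokinase Trib3 was 2.16-fold (1.08 to 4.54) higher. The motif of the synthetase promoters was in the windows of 9 of the 25 listed genes that had one, beside 4.51% of the 27025 genes. The 9 were Asns, Atf3, Chac1, Fgf21, Nupr1, Pycr1, Slc7a11, Trib3 and Vldlr. Since the list was made of genes known as ATF4 targets, a share above that of all genes follows in part from its choice. In a list of eIF2alpha kinases and genes that work with them or on eIF2alpha, 6 genes had at least 100 reads. Of these, 2 were 2-fold higher, the phosphatase subunits Ppp1r15a and Ppp1r15b, and 0 lower, beside 23.1% and 2.08% of the 8587 genes. The median of the 6 was 1.44-fold, that of the median gene. The other 4 of the 6 were Gcn1l1 (1.20-fold), Eif2s1 (1.31), Eif2ak1 (1.43) and Impact (1.46). Ppp1r15a, a phosphatase subunit of this pathway, had 757 reads in MHC403 and 172 in WT, 4.41-fold (3.73 to 5.24), and Ppp1r15b was 2.38-fold (1.81 to 3.16) higher. The kinase Eif2ak3 had 64 in MHC403 and 20 in WT, 3.21-fold (1.92 to 5.60). For the kinase Eif2ak4 the reads were 50 in MHC403 and 25 in WT, a ratio of 2.00 (1.22 to 3.38). Eif2ak2, with 55 in MHC403 and 30 in WT, had a ratio of 1.84 (1.16 to 2.97). With these genes of fewer than 100 reads included, the list of 9 had a median ratio of 1.84, beside 1.46 for the 13240 genes with 20 or more reads. Of the 9, 4 were past 2-fold upwards and 0 downwards, and all 9 intervals lay above 1, beside 53.8% of the 13240. Of 12 genes of the unfolded protein response 2 were 2-fold higher and 0 lower, beside 23.1% and 2.08% of the 8587 genes, with a median of 1.61-fold. The interval lay above 1 in 9 and below it in 2, the chaperone Hsp90b1 (0.875, 0.786 to 0.973) and Herpud1 (0.860, 0.783 to 0.943). By the lower bound of the interval, those farthest above 1 were Xbp1 (2.93-fold, 2.42 to 3.56), Dnajc3 (2.08-fold, 1.55 to 2.80) and Calr (1.72-fold, 1.56 to 1.89). Scaled by the median of ratios, 1 of the 6 genes of the eIF2alpha kinase list was 2-fold higher and 0 lower. For the unfolded protein response it was 1 of 12 and 0, beside 8.86% and 7.26% of the 8587 genes.

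**Figure D4:**
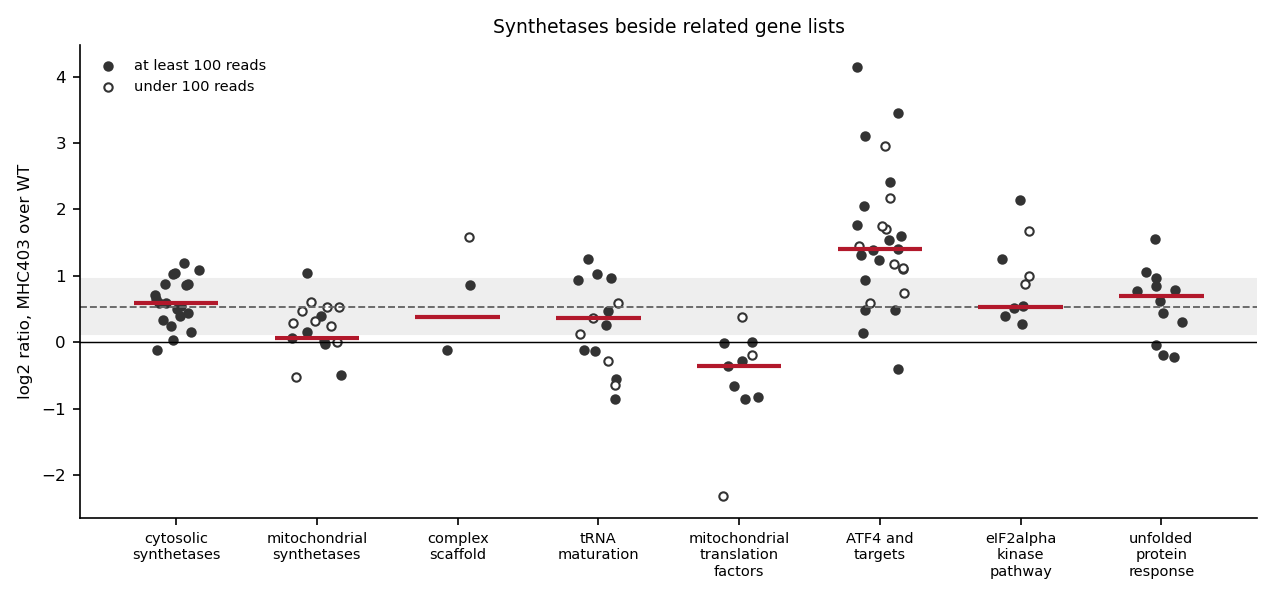
Log2 ratio, MHC403 over WT, of genes of the synthetase sets and of related lists, with filled points for genes that reached 100 reads over the pair of libraries and open points for those with fewer. Red bars are medians over the filled points, the dashed line the median of the 8587 genes (0.53) and the grey band their quartiles. The bar of the cytosolic enzymes (0.59) lies at the dashed line, that of the mitochondrial enzymes (0.07) below it, that of the mitochondrial translation factors lower still (-0.37), and that of ATF4 and its targets above it (1.40).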

How the data were processed

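Heart RNA of MHC403/+ and WT mice was measured by 5′RNA-seq, in which, per the labels' protocols, intact polyA RNA was used without fragmentation. The submitters' processing notes name TopHat 1.0.14 and mm9. How reads were counted, with or without strand, is not stated in the labels. The authors deposited, for each gene, raw whole-number counts, as the file headers show. Their deposited normalized reads are RPM, which recomputation from the counts matched to within 4.94e-06. A score per gene was also deposited, in whole numbers. The fold and p-value columns of the authors' table were not used.

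Samples were grouped by genotype label, 1 library each, so no model was fitted across genotypes. The exact interval of a ratio is conditional on the reads of both libraries (SciPy 1.17.1), and that of a quotient of ratios is the exact conditional interval of the odds ratio. A minimum of 100 reads was set on the sum of both libraries, so that a gene need not differ to pass, and a 2-fold point estimate served as the call. These steps were tested on simulated data. Alternatives covered scaling (median of ratios, TMM, totals without mitochondrial transcripts), the read minimum and membership. Starts are written 1-based. Median-of-ratios factors came from DESeq2 1.42.0 and TMM factors from edgeR 4.0.16, run in R 4.3.3. Amplified reads carry no molecular identifiers here, so intervals leave out amplification, pooling and animal-to-animal variation. Windows of promoters were matched to RefSeq by symbol or synonym. Members were named, except 1 mitochondrial gene that enters the counts and sums and is not reported here on its own, with full values for those past 2-fold or among the 10 whose interval bound lay farthest from 1, and for the lists a fixed set plus up to 3 genes by the same bound. Mrrf, Mtif3, Gcn1l1, Eif2s1, Eif2ak1, Eif2ak2, Eif2ak4, Impact, Hsp90b1, Herpud1, Trmt5 and Myh6 were added with their values known. The members and lists were chosen with earlier results of these data known.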

Additional observations from a re-analysis of the deposited data

How the results depend on the processing

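The mitochondrial set changed its side of a ratio of 1 with the scaling, while the cytosolic point estimates stayed above 1. The interval of the cytosolic summed log2 ratio held 0, however, with median-of-ratios (-0.0092 to 0.11) and TMM (-0.0071 to 0.11). It lay above 0 with totals without mitochondrial transcripts (0.21 to 0.32). With median-of-ratios, TMM and totals without mitochondrial transcripts, which lower every log2 ratio by 0.55, 0.55 and 0.33, the cytosolic median became 0.042, 0.044 and 0.26, the mitochondrial median -0.48, -0.48 and -0.26, the cytosolic summed log2 ratio 0.049, 0.051 and 0.26 (0.60 with library totals), and the mitochondrial summed log2 ratio -0.38, -0.38 and -0.17 (0.17 with library totals over the 7 members with at least 100 reads). No cytosolic or mitochondrial member was then 2-fold higher (0 under each of the 3, against 4 and 1). Among the 7 mitochondrial members with at least 100 reads, 1, Cars2, was 2-fold lower with median-of-ratios and TMM, against 0 with library totals. Members with fewer reads are outside this count, and Sars2 among them was also past 2-fold lower (-1.07 with median-of-ratios and -1.07 with TMM). Single members whose interval lay above 1 and whose sign turned were Eprs (-0.15 and -0.15 with median-of-ratios and TMM), Iars (-0.11 and -0.11), Mars (-0.042 and -0.040), Iars2 (-0.15 and -0.15), Lars (-0.31 and -0.30, and -0.091 without mitochondrial transcripts) and Qars (-0.0016 with median-of-ratios alone). The cytosolic minus mitochondrial difference of summed log2 ratios was 0.43 over members with at least 100 reads and does not depend on scaling; with a minimum of 400 reads it was 0.20 with an interval that holds 0 (-0.095 to 0.49), with 1 mitochondrial gene left (Iars2, 0.40) and 0 mitochondrial members 2-fold higher, by construction of that minimum. The difference of medians was 0.52 with 100 reads (-0.64 to 1.37), 0.35 with 20 reads (a minimum chosen after seeing the data) or none (-0.075 to 0.88), and 0.19 with 400 reads (-0.24 to 0.69). At 100 and 20 reads or none, these ranges combine the outer bounds of each set's 95% order-statistic interval over genes, which is conservative. At 400 reads the 1 mitochondrial gene has no such interval, so that range holds the spread of the cytosolic genes alone. All of the ranges hold 0, but they describe spread over genes and not over replicate libraries. For the 7 mitochondrial genes the set's interval runs from the lowest to the highest value, so these ranges cannot decide the question. The difference between the compartments is given by the summed reads and the pairs, whose intervals cover counting error only. Leaving out overlapping entries, leaving out Gars and Kars, or adding Tarsl2 (107 reads in MHC403 and 114 in WT) gave cytosolic summed log2 ratios of 0.57, 0.65 and 0.58 and 3, 3 and 4 cytosolic genes past 2-fold. No paired analysis was possible because each genotype has 1 library. At 100 reads split evenly, ratios between 0.662 and 1.51 cannot be told from 1.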
